A study of Homo sapiens with 32 samples.

Results

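The 10 genes described here make up the core of steroid hormone synthesis in the ovary: STAR, CYP11A1, HSD3B1, HSD3B2, CYP17A1, CYP19A1 and HSD17B1, together with the electron carriers FDX1, FDXR and POR. The rule that defined them used gene symbols and no measured value, though the set was proposed with earlier results of these data known, and all 10 were among the 47137 gene entries of the deposited tables, 18583 of which held values. In the RefSeq annotation of GRCh38.p14, STAR lies at chr8:38142700-38150952 on the - strand, CYP11A1 at chr15:74337762-74367646 (-), HSD3B1 at chr1:119507203-119515058 (+) and HSD3B2 at chr1:119414931-119423034 (+). CYP17A1 lies at chr10:102830531-102837413 (-), CYP19A1 at chr15:51208057-51338596 (-) and HSD17B1 at chr17:42552923-42555214 (+). FDX1 lies at chr11:110429331-110464884 (+), FDXR at chr17:74862497-74872994 (-) and POR at chr7:75915155-75986855 (+). The values are for whole genes, so exons, introns and transcript isoforms were not told apart.

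Steroid synthesis begins when the STAR protein moves cholesterol to the inner mitochondrial membrane, where CYP11A1 cuts its side chain to give pregnenolone, using electrons that FDXR and FDX1 pass on from NADPH. HSD3B1 and HSD3B2 turn pregnenolone into progesterone, CYP17A1 makes androgens, CYP19A1 (aromatase) turns androgens into estrogens, and HSD17B1 reduces estrone to estradiol. CYP17A1 and CYP19A1 lie in the endoplasmic reticulum and take their electrons from POR. In the follicle the work is divided, with theca cells supplying androgens through CYP17A1 and granulosa cells converting them through CYP19A1.

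The cells were HGrC1, an immortalised line derived from human granulosa cells and a single line throughout. They were cultured for 6 or 12 weeks with 0.01, 0.1 or 1 µM perfluorooctane sulfonate (PFOS), a persistent fluorinated surfactant, or with the vehicle alone (0.05% DMSO, called control). Bulk mRNA was sequenced from 4 replicates of each of the 8 groups, 32 libraries in all. Every group was grown in medium with 10% fetal bovine serum, and an added steroid at 100 nM that the sample records name as estradiol and the methods of the study as testosterone, so steroid was present in the controls too. The 4 replicates were 4 vials of the line frozen on different dates, and the flask grown from each vial was divided among the 4 concentrations, so the errors given cover cultures of 1 line and not donors. The same cultures gave the 6-week and the 12-week libraries, so exposure time, age of the culture, passage and date of collection cannot be told apart.

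The libraries held between 17907057 and 18553350 counts. Of 15 granulosa cell markers with values, 11 averaged above 1 TPM, a level scaled to the library and corrected for gene length, and their summed level was 2637 to 3085 TPM at 6 weeks and 2529 to 2912 TPM at 12 weeks, most of it from the keratin KRT18. Several defining granulosa markers were low or nearly absent: FOXL2, a transcription factor of the granulosa lineage, averaged 0.747 TPM at 6 weeks and 0.519 TPM at 12 weeks, AMHR2, the receptor of anti-Müllerian hormone, averaged 0.0262 and 0.0475 TPM, and CYP19A1 had 1 count in all libraries. Theca markers, which include STAR and CYP17A1, summed to 2.55 to 4.54 TPM over all libraries, where STAR alone measured 0.58 to 2.95 TPM. Transcripts of liver-secreted proteins summed to at most 0.06 TPM in the control and 0.01 µM libraries of 6 weeks and to 2.84 TPM or more in every other library, with replicate 3 of the 12-week control apart from the rest at 39.4 TPM.

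The genes fell into a wide range of levels. Over the 16 libraries of 6 weeks, the median level was 59.7 TPM for POR, 28.2 TPM for HSD3B1 and 22.4 TPM for FDXR. FDX1 had a median of 5.96 TPM, HSD17B1 of 5.77 TPM, STAR of 2.40 TPM and CYP11A1 of 1.41 TPM. In that order the ranges over the libraries overlapped between HSD3B1 and FDXR, between FDX1 and HSD17B1, and between STAR and CYP11A1, and did not overlap between the other neighbours. At 12 weeks FDXR, with a median of 27.3 TPM, stood above HSD3B1, with 11.0 TPM, and the order was otherwise the same, from POR at 47.2 TPM through FDX1 at 6.19 TPM, HSD17B1 at 5.36 TPM and STAR at 1.31 TPM down to CYP11A1 at 0.285 TPM. The electron carriers of both compartments were therefore measured well above the only mitochondrial P450 of the group: the TPM ratio of FDX1 to CYP11A1 was 4.39 ± 1.54 (SD, n = 16 libraries) at 6 weeks and 25.3 ± 14.6 at 12 weeks.

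**Figure D1:**
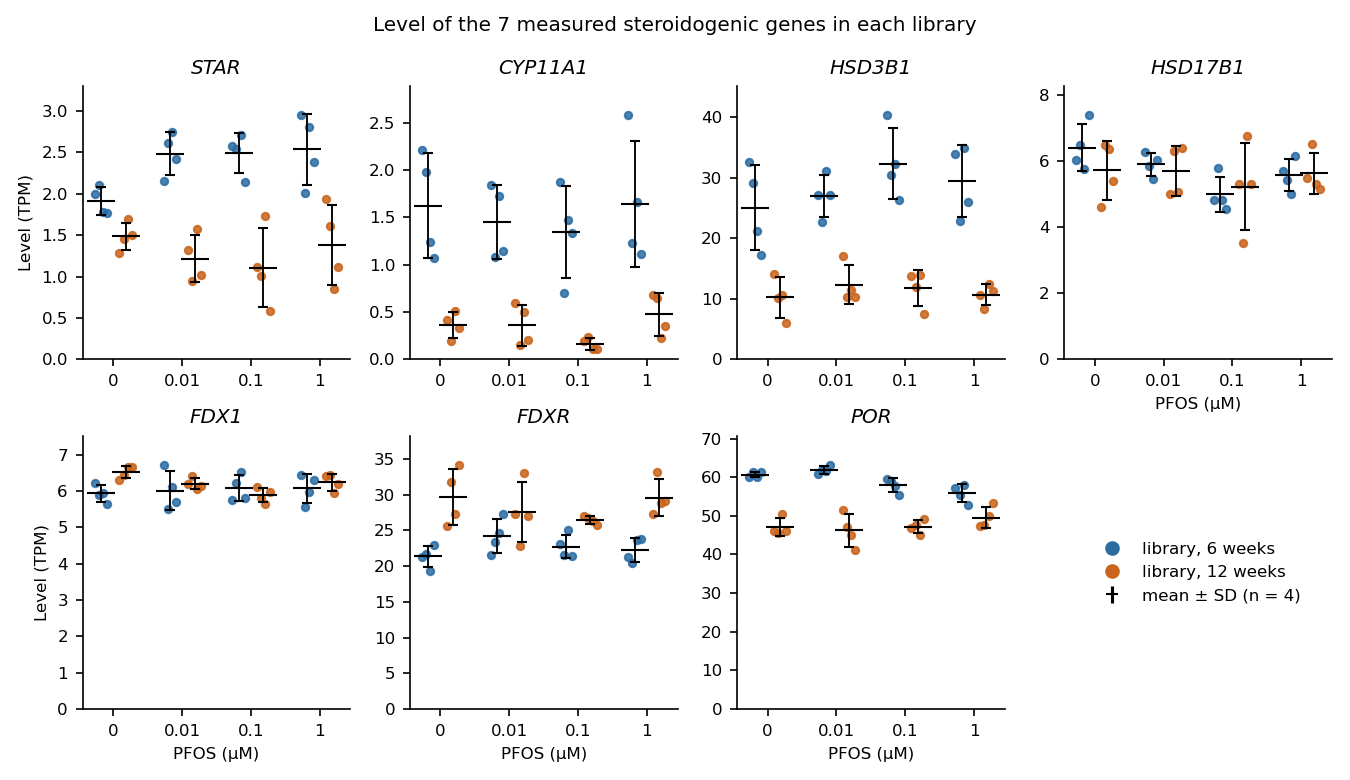
Level of the 7 measurable genes (y axis, TPM, each panel with its own scale) in each library (points) of the 8 groups (x axis, PFOS concentration at 6 and at 12 weeks), with the mean and SD of 4 libraries. CYP11A1 and HSD3B1 lie lower in the 12-week groups at every concentration, FDXR lies higher, and the 4 concentrations of one time point largely overlap.

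The remaining 3 genes were at the limit of detection. HSD3B2, the isoform of adrenal and gonad, gathered 11 counts in all, in 10 of the 32 libraries, with no more than 2 in any one and a highest level of 0.12 TPM. CYP17A1 gathered 5 counts, each in a different library. CYP19A1, the enzyme that makes estrogens from androgens, had 1 count in all 32 libraries, in replicate 3 of the 12-week control, and none in the 16 libraries of 6 weeks, which allows a level of up to 0.0104 CPM (counts scaled to the size of the library). None of the 3 had enough counts to be tested with the other genes. In exact two-sided permutation tests of log2(CPM + 1), 4 libraries against 4, their lowest p was 0.429 over the 6 comparisons of PFOS with control. Such a test can give a p as small as 0.0286 where most values differ. With nearly all values at 0 these tests could not reach it, so they decide nothing. A difference between groups in these 3 genes was not detectable at this depth.

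The promoters of the members differ in what they hold. AAGGNCA is the half-site bound by the nuclear receptors NR5A1 (SF-1) and NR5A2 (LRH-1), which are known to drive steroidogenic genes, and GGGCGG is the box bound by Sp1. RefSeq promoter entries on GRCh38.p14 were at hand for 7 of the 10 genes, and not for STAR, HSD17B1 or POR. The 250 bases before the start of 4 of them are shown: CYP11A1 and HSD3B1, the genes that fell most with time, FDXR, the gene that rose, and CYP19A1, which had 1 count in all. For HSD3B1 and FDXR the upstream one of 2 annotated starts is shown. All are written 5′ to 3′ on the strand of the gene, with AAGGNCA on either strand in capitals, or GGGCGG in FDXR.
CYP11A1, chr15:74367647-74367896 (-): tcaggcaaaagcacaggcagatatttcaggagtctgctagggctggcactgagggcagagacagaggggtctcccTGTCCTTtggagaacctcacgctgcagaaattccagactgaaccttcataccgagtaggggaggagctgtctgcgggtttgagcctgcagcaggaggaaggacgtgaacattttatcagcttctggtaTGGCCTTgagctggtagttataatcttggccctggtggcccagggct
HSD3B1, chr1:119506953-119507202 (+): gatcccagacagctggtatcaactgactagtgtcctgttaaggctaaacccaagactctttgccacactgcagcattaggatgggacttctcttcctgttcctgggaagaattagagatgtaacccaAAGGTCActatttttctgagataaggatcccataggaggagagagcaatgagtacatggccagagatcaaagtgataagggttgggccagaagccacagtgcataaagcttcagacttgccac
FDXR, chr17:74872995-74873244 (-): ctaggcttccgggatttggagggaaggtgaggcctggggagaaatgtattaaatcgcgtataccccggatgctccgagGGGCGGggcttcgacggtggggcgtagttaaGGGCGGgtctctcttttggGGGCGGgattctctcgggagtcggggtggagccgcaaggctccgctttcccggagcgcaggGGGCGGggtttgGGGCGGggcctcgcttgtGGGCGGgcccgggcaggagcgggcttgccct
CYP19A1, chr15:51243030-51243279 (-), the most downstream of 7 annotated starts: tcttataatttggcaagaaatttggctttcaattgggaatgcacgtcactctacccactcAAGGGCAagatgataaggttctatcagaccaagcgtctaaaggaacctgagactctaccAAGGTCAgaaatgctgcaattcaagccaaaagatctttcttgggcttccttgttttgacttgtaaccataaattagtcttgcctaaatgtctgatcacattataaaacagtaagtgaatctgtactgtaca
The CYP11A1 promoter held 2 half-sites, both on the opposite strand, beginning 175 and 47 bases before the start, and the HSD3B1 promoter held 1, at 123 bases. The CYP19A1 promoter shown held 2, at 190 and 131 bases, while of its other starts 1 held a half-site. The FDXR promoter shown held no half-site in this window and 6 Sp1 boxes, while that of its other annotated start held neither. FDX1 held no half-site and 3 Sp1 boxes. Of the genes at the limit of detection, HSD3B2 also held 1 half-site, at 102 bases, and CYP17A1 held none. AAGGNCA, searched on both strands, was in 14.8% of all 35116 promoters of this length and GGGCGG in 42.6%, so a match describes the sequence and does not mark a bound site.

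The first question of the design was whether PFOS changed these genes at each time point. None of the 7 tested genes passed an adjusted p of 0.05 (edgeR's quasi-likelihood test, Benjamini-Hochberg adjustment over all genes tested) at any concentration. The share of all genes that passed was 0% at 0.01 µM, 4.24% at 0.1 µM and 0.28% at 1 µM after 6 weeks, and 0%, 1.07% and 0.22% after 12 weeks, so with 7 genes a count of 0 is near what all genes show. The median log2 fold change of the 7 genes was 0.04, 0.06 and 0.09 at 6 weeks and -0.05, -0.18 and -0.07 at 12 weeks, from the lowest to the highest concentration, beside 0.00 over all genes in each comparison. All comparisons of one time point share the same 4 control libraries.

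STAR, which governs cholesterol entry, was the member whose 6-week values stood furthest from control. In the 6-week controls STAR measured 2.00, 2.11, 1.78 and 1.77 TPM. At 0.01 µM it measured 2.16, 2.62, 2.75 and 2.42 TPM, at 0.1 µM 2.58, 2.54, 2.71 and 2.14 TPM, and at 1 µM 2.95, 2.01, 2.81 and 2.38 TPM. All libraries at 0.01 and 0.1 µM lay above all controls, as 3.93% and 12.2% of all genes did in one direction or the other, and at 1 µM replicate 2 lay inside the control range. The log2 fold change was 0.39 (95% interval 0.10 to 0.68), 0.40 (0.11 to 0.69) and 0.46 (0.17 to 0.75), with unadjusted p of 0.0105, 0.00838 and 0.00284 and adjusted p of 0.453, 0.0970 and 0.135 in the edgeR test. STAR therefore did not pass the threshold, while the intervals cover an increase of up to 0.75 on the log2 scale.

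At 12 weeks the STAR libraries with PFOS did not stand above their controls. STAR measured 1.29, 1.46, 1.69 and 1.5 TPM in the controls, and ranged from 0.95 to 1.57 TPM at 0.01 µM, from 0.58 to 1.73 TPM at 0.1 µM and from 0.85 to 1.94 TPM at 1 µM. The exposed libraries lay on both sides of the control range at 0.1 and 1 µM. The log2 fold change was -0.28, -0.46 and -0.17, with adjusted p from 0.425 to 0.875 in the edgeR test. The difference between the PFOS effect at 12 weeks and that at 6 weeks was -0.66, -0.86 and -0.63 in log2 fold change for STAR, with unadjusted p of 0.0312, 0.00675 and 0.0386 and adjusted p of 0.629, 0.163 and 0.388 (edgeR interaction), so a change of the STAR response with time did not pass the threshold either.

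CYP11A1, the side chain cleavage enzyme, varied most among replicates. The 6-week controls measured 2.21, 1.98, 1.24 and 1.07 TPM, and the 3 exposed groups lay between 0.70 and 2.58 TPM, on both sides of the controls. At 12 weeks the controls held 8, 4, 11 and 7 counts and the 0.1 µM libraries 4, 5, 2 and 2 counts. These groups overlapped, and the log2 fold change of -1.18 had a 95% interval of -2.30 to -0.05 and an adjusted p of 0.309 in the edgeR test. At 1 µM the 12-week libraries held 14, 13, 4 and 7 counts, and the log2 fold change was 0.33 (-0.58 to 1.23), so the lower values at 0.1 µM did not extend to the higher concentration.

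HSD3B1, which makes progesterone from pregnenolone, measured 32.56, 29.13, 21.15 and 17.30 TPM in the 6-week controls. The libraries at 0.1 µM PFOS measured 40.33, 30.54, 32.21 and 26.28 TPM, and those at 0.01 and 1 µM lay between 22.61 and 34.89 TPM. The exposed groups overlapped the wide control range, and the log2 fold change was 0.12, 0.39 and 0.29 at 6 weeks with adjusted p of 0.905, 0.310 and 0.593 in the edgeR test. At 12 weeks it was 0.28, 0.18 and 0.00, with 95% intervals no wider than -0.53 to 0.80 and adjusted p of 0.764 or more. HSD3B1 and HSD3B2 are near-identical, so reads could be split between them, but the summed HSD3B1 and HSD3B2 CPM, which hardly differs from HSD3B1 alone, also gave no exact permutation p below 0.171.

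HSD17B1, which forms estradiol from estrone, was the member with the lowest values at 0.1 µM relative to control after 6 weeks. The controls measured 6.03, 6.48, 5.75 and 7.39 TPM and the 0.1 µM libraries 4.83, 5.78, 4.82 and 4.55 TPM. Only replicate 2 at 0.1 µM reached the lowest control. The log2 fold change was -0.34 (95% interval -0.59 to -0.08), with an unadjusted p of 0.0111 and an adjusted p of 0.112 in the edgeR test, and it was -0.11 and -0.14 at 0.01 and 1 µM. At 12 weeks the groups overlapped throughout, with adjusted p from 0.677 to 0.988. A near-identical pseudogene, HSD17B1P1, lies beside HSD17B1, so a part of these counts is uncertain.

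The electron carriers were the most even of the genes. POR measured 60.09, 61.23, 59.96 and 61.46 TPM in the 6-week controls and 57.22, 55.37, 57.91 and 52.79 TPM at 1 µM PFOS. The libraries at 1 µM all lay below the controls, as 6.79% of all genes did in one direction or the other, yet the log2 fold change was -0.06 (95% interval -0.13 to 0.00) with an adjusted p of 0.397 in the edgeR test. The 0.1 µM libraries measured 59.53, 58.88, 57.74 and 55.36 TPM, below all controls in TPM but not in CPM, and at 12 weeks the POR intervals lay between -0.15 and 0.12 at all 3 concentrations.

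FDX1, the ferredoxin that hands electrons to CYP11A1, measured 6.31, 6.45, 6.66 and 6.67 TPM in the 12-week controls and 6.11, 5.81, 5.65 and 5.98 TPM at 0.1 µM. All 4 exposed libraries lay below the controls, as 8.47% of all genes did in one direction or the other, with a log2 fold change of -0.18 (95% interval -0.33 to -0.04), an unadjusted p of 0.0170 and an adjusted p of 0.225 in the edgeR test. At 1 µM the change was -0.13 (-0.27 to 0.02), and at 6 weeks the log2 fold change of FDX1 was 0.03, 0.06 and 0.09 from the lowest to the highest concentration. FDXR, the reductase that feeds FDX1, was at 0.18 in log2 fold change at 0.01 µM after 6 weeks (adjusted p = 0.462, edgeR) and at -0.20 in log2 fold change at 0.1 µM after 12 weeks (adjusted p = 0.353), and its groups overlapped in both. At 0.01 and 1 µM after 12 weeks all 7 genes overlapped their controls, beside 2.82% and 6.53% of all genes that did not.

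**Figure D2:**
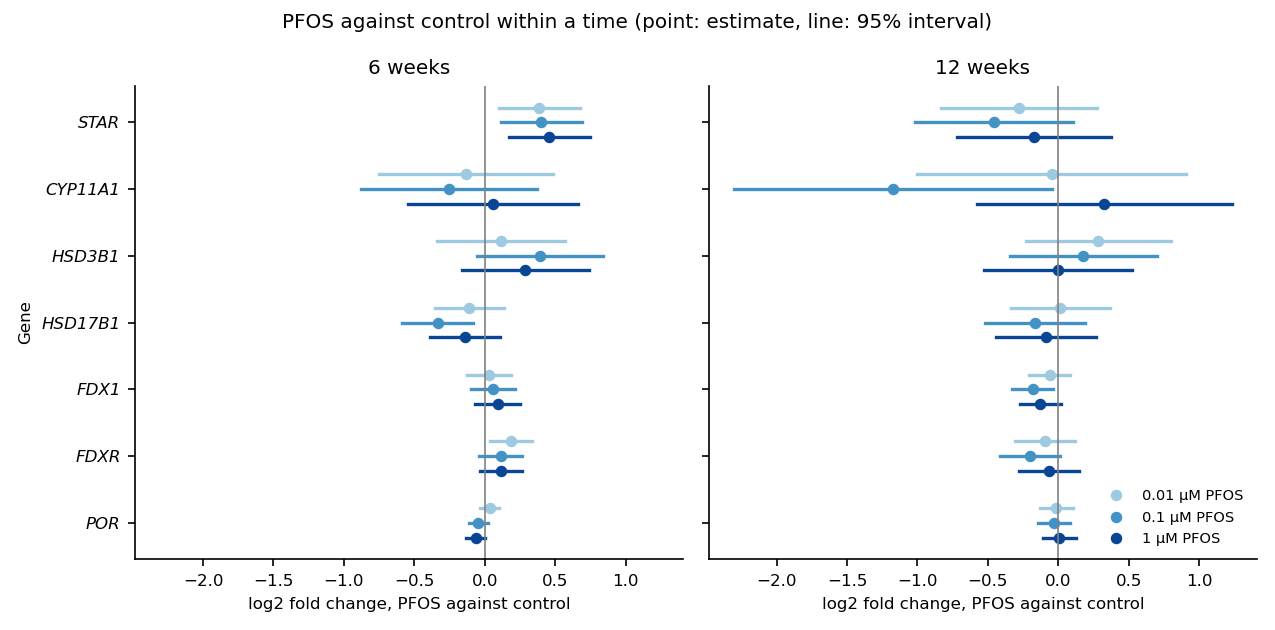
Log2 fold change of the 7 tested genes (x axis) against control with its 95% interval, for 3 PFOS concentrations at 6 weeks and at 12 weeks (edgeR). The 6-week STAR intervals lie above 0 and the HSD17B1 interval at 0.1 µM below it, the CYP11A1 intervals at 12 weeks are the widest, and no gene passed an adjusted p of 0.05.

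Counted without adjustment for multiple testing, 2, 2 and 1 of the 7 genes had p below 0.05 at 0.01, 0.1 and 1 µM after 6 weeks, beside 9.6%, 20.8% and 13.7% of all genes, and 0, 2 and 0 after 12 weeks, beside 8.48%, 15.4% and 8.75%. A trend over the 4 concentration steps gave adjusted p of 0.131 for STAR, with a log2 change of 0.13 per step, and 0.205 for POR, with -0.03 per step, as the lowest values at 6 weeks (edgeR). The lowest at 12 weeks was 0.323, for FDX1. None of the 7 genes passed in either trend, beside 0.701% and 0.416% of all genes, and 2 and 1 had an unadjusted p below 0.05, beside 16.5% and 13.8%. None passed for a difference in PFOS effect between the time points, beside 0%, 0.208% and 0.123% of all genes, although 2, 3 and 2 genes had an unadjusted p below 0.05, beside 7.48%, 14.5% and 12.1%. The interactions share their control libraries with each other.

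The second comparison, between 12 and 6 weeks of culture, gave far larger differences. Averaged over the 4 concentrations, CYP11A1, HSD3B1, STAR and POR fell and FDXR rose, 5 of the 7 tested genes, where 64.4% of all genes passed the same threshold (33.2% higher, 31.2% lower). Within the controls 5 of the 7 passed, beside 36.6% of all genes, and 5 of the 7 at 0.01, 0.1 and 1 µM, beside 42.7%, 40.3% and 30.1%. In the averaged comparison CYP11A1 and HSD3B1 also fell by more than 2-fold, which 3.2% of all genes passed in either direction. The median log2 fold change of the 7 genes was -0.28, beside 0.01 over all genes. Since the RNA came from whole cultures, fewer cells expressing a gene and less RNA per cell cannot be told apart.

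CYP11A1 showed the largest difference of the 7 genes. The 6-week libraries held 14 to 50 counts each and the 12-week libraries 2 to 14. In the controls CYP11A1 fell from 2.21, 1.98, 1.24 and 1.07 TPM to 0.42, 0.19, 0.51 and 0.33 TPM, and no library of the 16 at 12 weeks reached any of the 16 at 6 weeks, a separation shared by 7.77% of all genes. The averaged log2 fold change was -2.17 (95% interval -2.57 to -1.76, adjusted p = 1.59e-11, edgeR), a level 4.49-fold lower. It was -2.03 in the controls, -1.93 at 0.01 µM, -2.95 at 0.1 µM and -1.76 at 1 µM, and each passed, with adjusted p of 0.000298 or below. Libraries of the same vial number and concentration were taken as 1 culture. This pairing is uncertain for the control and 1 µM libraries of 12 weeks, and only weakly borne out for the other libraries of 12 weeks. CYP11A1 was lower at 12 weeks in all 16 cultures so paired, with a 12- to 6-week CPM ratio between 0.0697 and 0.529.

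HSD3B1 fell with it. The 12-week controls measured 14.07, 10.16, 10.65 and 5.97 TPM, all below the lowest 6-week control of 17.30 TPM. The averaged log2 fold change was -1.31 (95% interval -1.54 to -1.07, adjusted p = 3.5e-10, edgeR), a level 2.47-fold lower, and it was -1.23, -1.05, -1.44 and -1.51 from control to 1 µM. All 16 cultures were lower at 12 weeks, with a median CPM ratio of 0.397. Replicates kept some order over the groups: the cultures of vial 1 had the highest HSD3B1 in 5 of the 8 groups and the highest CYP11A1 in 6 of the 8, while vials 2 and 4 had the lowest HSD3B1 in 4 groups each.

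STAR fell in the cultures with PFOS, while its difference in the controls did not pass. The averaged log2 fold change was -0.83 (95% interval -1.04 to -0.62, adjusted p = 1.35e-08, edgeR), a level 1.77-fold lower, and STAR was lower at 12 weeks in 15 of 16 cultures. In the controls alone the mean went from 1.92 ± 0.168 TPM (SD, n = 4) to 1.49 ± 0.164 TPM, a log2 fold change of -0.29 (-0.71 to 0.13) with an adjusted p of 0.287. It was -0.95, -1.15 and -0.92 at 0.01, 0.1 and 1 µM, with adjusted p of 0.000335, 4.5e-05 and 0.000713. The tests of the difference between exposed and control are the interactions given above, none of which passed, so a larger fall of STAR under PFOS was not shown.

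The electron carriers moved in different directions. POR fell from 60.09, 61.23, 59.96 and 61.46 TPM in the 6-week controls to 46.06, 45.49, 50.42 and 46.18 TPM in those of 12 weeks, and its 16 libraries of each time point overlapped in TPM but not in CPM, as for 7.77% of all genes. The averaged change in POR was -0.28 on the log2 scale (95% interval -0.33 to -0.24, adjusted p = 1.31e-13, edgeR), which is 17.8% lower, with 16 of 16 cultures lower. FDXR rose from 21.32, 21.77, 19.39 and 23.03 TPM to 25.61, 31.79, 27.29 and 34.14 TPM in the controls, with no overlap there, as for 31.2% of all genes. Its averaged log2 fold change was 0.36 (0.26 to 0.45, adjusted p = 8.94e-08, edgeR), 28% higher, and all 16 cultures were higher.

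FDX1, the partner of FDXR, passed in the controls and at no PFOS concentration, a difference that the interactions above did not show. In the controls FDX1 had a log2 fold change of 0.21 and an adjusted p of 0.0154 (edgeR), which became 0.0814 without replicate 3 and 0.121 without replicate 4, and averaged over the concentrations it was 0.08 with an adjusted p of 0.0530. FDXR passed at each concentration, with 0.55 in the controls and 0.27, 0.23 and 0.37 under rising PFOS, but at 0.1 µM its adjusted p was only 0.0492 and was lost without replicate 1 (0.136), 2 (0.157) or 4 (0.120) or without replicate 3 of the 12-week control (0.0562). The FDXR value at 0.01 µM rested on replicates 1 and 3, with an adjusted p of 0.0787 or 0.163 when one of them was omitted, and at 1 µM on replicate 2 (0.0648). The TPM ratio of FDXR to FDX1 was 3.78 ± 0.411 (SD, n = 16) at 6 weeks and 4.56 ± 0.479 at 12 weeks. HSD17B1 did not pass, with an averaged log2 fold change of 0.00 (-0.15 to 0.15), and it was higher in 9 cultures and lower in 7.

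**Figure D3:**
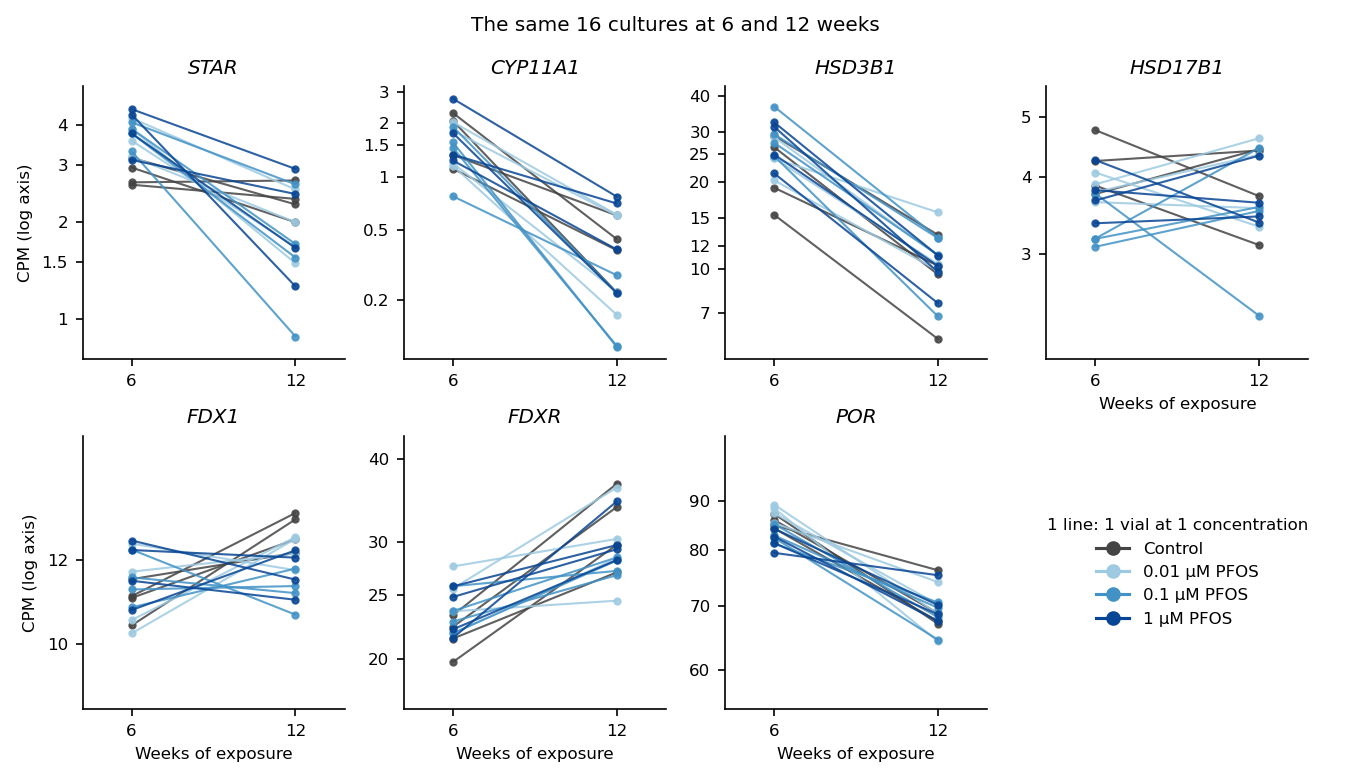
Level in CPM (y axis, log scale) of the 7 tested genes at 6 and at 12 weeks, with 1 line for each of the 16 cultures (4 vials by 4 concentrations, in colour). CYP11A1, HSD3B1 and POR were lower at 12 weeks in all 16 cultures, STAR in 15, and FDXR was higher in all 16.

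Transcripts of liver-secreted proteins differed between the time points in the control and 0.01 µM groups, as given above. Their sums lay between 3.82 and 7.35 TPM in all 0.1 and 1 µM libraries of both time points, where CYP11A1 fell by 2.95 and 1.76 and HSD3B1 by 1.44 and 1.51 on the log2 scale. Markers of stroma summed to 545 to 695 TPM at 6 weeks and 441 to 760 TPM at 12 weeks, those of leukocytes and endothelium to 21.8 to 30.2 and 13.5 to 22.4 TPM, and those of the ovarian surface epithelium to 185 to 251 and 208 to 258 TPM. Of the last, MSLN (mesothelin) averaged 87.5 TPM at 6 weeks and 122 TPM at 12 weeks. The part of the liver transcripts and of these markers in the fall of CYP11A1, HSD3B1 and STAR was not tested. Of the adrenal markers, MC2R and MRAP were at 0, while CYP21A2, given below, had enough counts to be tested.

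Other genes of the pathway were read from lists chosen by function. Of 33 other enzymes that make, interconvert or inactivate steroids, 19 could be tested, and averaged over the concentrations 13 fell and 2 rose from 6 to 12 weeks, 78.9% beside 64.4% of all genes, with a median log2 fold change of -0.19. SULT1E1, which sulfates estrogens, had 254 counts in the 6-week libraries (8 to 29 in each) and 3 in those of 12 weeks (0 to 2 in each), a ratio of 85.4 with an exact 95% counting interval of 28.9 to 417. HSD17B14 fell by 1.11 on the log2 scale, AKR1C3, which reduces androgens and progesterone, fell by 1.1, and HSD17B6 fell by 0.51, while HSD17B8 rose by 0.80. CYP21A2 fell by 0.84, but it has a near-identical pseudogene and its counts are uncertain.

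Of 20 genes that bring cholesterol to the mitochondrion, all tested, 10 fell and 2 rose, a share of 60% beside 64.4% of all genes, with a median log2 fold change of -0.04. STARD5, a cytosolic sterol carrier, fell by 0.33, SOAT1, which esterifies cholesterol, fell by 0.29, ACSL4 fell by 0.18, the lipoprotein receptor SCARB1 fell by 0.14, and OSBPL1A rose by 0.28. Among other electron carriers and P450 partners, 7 of 13 tested fell and 2 rose, 69.2% beside 64.4% of all genes, with a median of -0.06. IDH1, a source of NADPH, fell by 0.26, PGRMC2 by 0.24, CYB5R1 by 0.21 and CYB5R3 by 0.17, while CYB5R4 rose by 0.17. Of the other P450 enzymes and POR-dependent enzymes, 8 of 13 tested fell and none rose at the same threshold, 61.5% beside 64.4% of all genes, with a median of -0.22. CYP24A1, which degrades vitamin D, fell by 1.13, CYP1A1 by 0.98, CYP2U1 by 0.49, HMOX1 by 0.23, CYP51A1 by 0.23 and HMOX2 by 0.22.

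Among receptors, kinase subunits and transcription factors of steroidogenesis, 10 of 33 tested fell and 9 rose, 57.6% of those tested beside 64.4% of all genes, with a median log2 fold change of 0.01. Over the 5 lists together 63 of 98 tested genes passed, or 64.3%, near the share over all genes. In each of the 5 lists more genes fell than rose, though only by 10 to 9 among these regulators. Over all genes 33.2% passed as higher and 31.2% as lower. NR5A2, a nuclear receptor that binds the AAGGNCA letters shown above, fell by 1.44 on the log2 scale (adjusted p = 6.21e-08, edgeR). NR5A1, its close relative, was too low to be tested. It had 81 counts in the 6-week libraries (1 to 14 in each) and 20 at 12 weeks (0 to 4 in each). The counts of the time points overlapped. The ratio of NR5A1 was 4.09, with an exact 95% counting interval of 2.48 to 7.04 that leaves out the spread between replicates. PRKAR2B, a regulatory subunit of protein kinase A, fell by 1.59, NR2F1 fell by 0.76 and FOXL2 fell by 0.48, while the immediate early receptors NR4A3 and NR4A1 rose by 0.63 and 0.39.

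**Figure D4:**
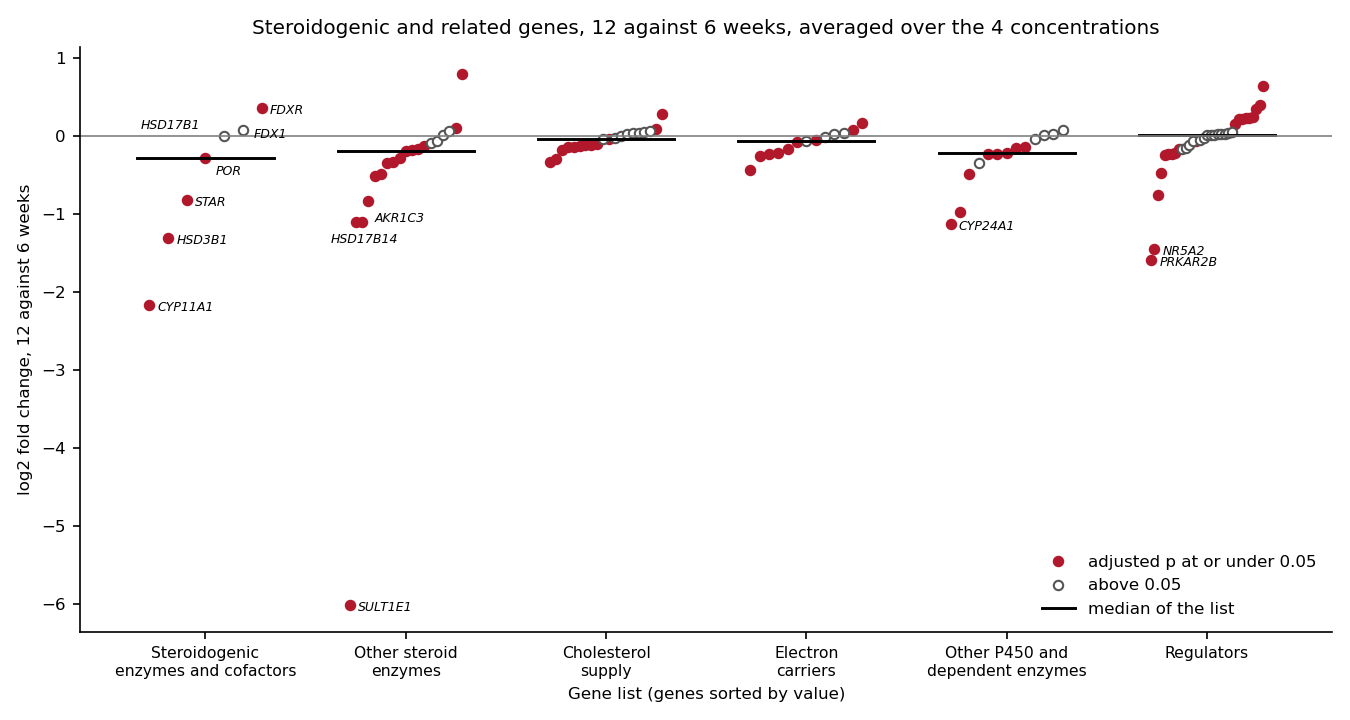
Log2 fold change from 6 to 12 weeks, averaged over the 4 concentrations (y axis), for every tested gene of the 10 described here and of 5 related lists (x axis, sorted within each list), with red points for an adjusted p at or under 0.05 and a bar at each median (edgeR). CYP11A1 and HSD3B1 lie well below their list's median of -0.28, and the fitted value of SULT1E1 rests on 3 counts at 12 weeks.

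Under PFOS, 5 of the 97 tested genes of these lists passed at 0.1 µM after 6 weeks, 5.15% beside 4.24% of all genes. After 12 weeks 2 of 96 passed at 0.1 µM and 2 at 1 µM, 2.08% each beside 1.07% and 0.22%. Each of these calls, at 6 and at 12 weeks, was lost on omission of at least 1 replicate. At 0.1 µM after 6 weeks CYP1B1, an enzyme that hydroxylates estrogens, fell by 0.34 on the log2 scale (adjusted p = 0.0159, edgeR), NR4A3 fell by 1.32 (0.00385) and ATAD3A by 0.17 (0.0364), while STARD4, a cholesterol carrier, rose by 0.16 (0.0359) and RUNX1 by 0.12 (0.0386). At 0.1 µM after 12 weeks CYP1A1 fell by 2.17 (adjusted p = 0.0204, edgeR) and CYP1B1 by 0.67 (0.00880). At 1 µM after 12 weeks CYP1B1 fell by 0.73 (0.0075) and the phosphodiesterase PDE4D by 1.31 (0.0308). In the 12-week trend CYP1A1, CYP1B1, PDE4D and NR4A3 fell by 0.79, 0.25, 0.44 and 0.46 per step. Without replicate 3, the adjusted p of the 5 genes at 0.1 µM after 6 weeks was 0.0912 for STARD4, 0.0994 for CYP1B1 and NR4A3, 0.160 for ATAD3A and 0.178 for RUNX1. Without replicate 3 that of CYP1B1 at 12 weeks was 0.149 at 0.1 µM and 0.0990 at 1 µM, and that of PDE4D was 0.267. CYP1A1 had 13, 10, 27 and 15 counts in the 12-week controls and 2, 6, 4 and 2 at 0.1 µM, and its adjusted p was 0.126 without control replicate 3 and 0.144 without replicate 4. In the 12-week trend CYP1B1 kept its call under 10 of 10 alternatives that gave an adjusted p, NR4A3 under 6 of 10 (adjusted p up to 0.290), PDE4D under 5 of 9 (up to 0.136) and CYP1A1 under 4 of 7 (up to 0.124). No gene of these 5 lists passed at 0.01 µM, or at 1 µM after 6 weeks.

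Pairs of the genes varied together over the 32 libraries mostly through the difference between the time points. The correlation of log2 CPM was 0.853 between CYP11A1 and HSD3B1, 0.823 between STAR and CYP11A1 and 0.794 between STAR and HSD3B1, and within the 8 groups, after removal of the group means, 0.469, 0.466 and 0.332. POR correlated with CYP11A1 at 0.852 over all libraries and at 0.183 within groups, and FDXR with HSD3B1 at -0.740 and -0.193. FDX1 and FDXR, the 2 partners of one chain, correlated at 0.459 and 0.0675. The points share the vials and the time points, so these values are descriptions.

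The genes with the most similar pattern over the 32 libraries, among 12613 compared by Pearson's r of log2 CPM, were RARRES1 (0.955), STING1 (0.923) and SOD2 (0.921) for STAR. For CYP11A1 they were MAPK13 (0.952), CYBA (0.945) and SERPINB6 (0.940), and for HSD3B1 AKR1B10 (0.966), GAS7 (0.952) and JCAD (0.949). POR was most like A4GALT (0.957), ITGB5 (0.947) and ITGA5 (0.946), and FDXR most like PTGDS (0.904), GYPC (0.902) and NETO2 (0.865). HSD17B1 and FDX1, which differed little between the time points, had weaker neighbours: IMP3 (0.656), TLCD3A (0.604) and NOP16 (0.575) for HSD17B1, and TMEM39A (0.707), PPP1R2 (0.699) and MYNN (0.683) for FDX1.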

How the data were processed

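HGrC1 cells were exposed to vehicle or PFOS, and RNA was sequenced from 8 groups of 4 libraries. The authors aligned the reads and estimated expression per gene: the submitters' processing notes name HISAT2 2.0.4, Bowtie2 2.2.5, RSEM 1.2.8 and GRCh38.p14. The expected counts deposited by the authors, of which 7.68% were not whole, were rounded and used for all tests. The TPM and FPKM values deposited by the authors were used for levels between genes, and the table of normalized counts was not used. No column was left unmapped. Deposited start coordinates of CYP11A1 mixed a patch sequence with the chromosome, so RefSeq loci were used.

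Genes were filtered with filterByExpr, scaled by TMM and fitted with edgeR 4.0.16 (robust quasi-likelihood) per time point, or over all 32 libraries for time comparisons and interactions, in R 4.3.3, with an adjusted p threshold of 0.05 over 12836, 12742 and 12988 genes. The 12 against 6 week comparison at each PFOS concentration was added to those in the control and averaged over the concentrations. Genes too low to test were compared by exact permutation of log2(CPM + 1) (scipy 1.17.1). Alternatives were DESeq2 1.42.0, its size factors, limma 3.58.1 on log2(TPM + 0.1), other filters, a replicate block, one fit over all libraries, the 8 libraries of 2 groups alone, and omission of each replicate and of replicate 3 of the 12-week control. The edgeR fit was tested on simulated data, and the limma fit was not. Intervals of fold changes are from the edgeR fits and include the spread between replicates, while count-ratio intervals and floors (3 counts) cover counting error only. Python 3.11.15, numpy 2.4.6, pandas 2.3.3 and matplotlib 3.10.9 were also used.

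All 48 replicate pairs differed beyond counting noise (chi-square per degree of freedom 2.35 to 16.9), and 0 were identical. By the study's protocol a replicate number marks 1 vial. Deviations of same-vial libraries from their group means correlated by 0.0553 to 0.142 on average between 6-week groups. Between the 6- and 12-week groups of one concentration they correlated by 0.0544, 0.100, 0.0207 and 0.0574 (control to 1 µM). Between control and 1 µM at 12 weeks the value was -0.177, which does not single out either group. The 12-week 0.01 µM libraries gave -0.0619 with the 6-week control and 0.142 with 1 µM at 6 weeks. Those of 0.1 µM at 12 weeks gave -0.0322 with 0.01 µM and 0.0973 with 1 µM at 6 weeks. The vial numbers of the 12-week control and 1 µM libraries are therefore uncertain, and those of the other 12-week libraries are only weakly borne out.

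Members, by symbol, and gene lists were chosen with earlier results of these data known. Every member is named. Of each list, genes passing a PFOS comparison, a trend or the averaged time comparison are named (at most 6, by size of change), with 3 genes of most similar pattern for each tested member among genes with a mean of 10 counts or more. Some genes that this rule names are not reported here. Columns of the authors' own comparisons were not used.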

Additional observations from a re-analysis of the deposited data

Results flagged for a closer look

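Of 56 sets of 4 libraries (7 genes in 8 groups), 1 held a library far from the other three. At 0.1 µM PFOS after 6 weeks, HSD17B1 was at 3.76 CPM in replicate 2 and at 3.08, 3.17 and 3.18 CPM in the others, and this gap was 0.857 of the range of the group. About 1 in 20 such groups would be picked out by chance. No difference in PFOS effect between the time points passed the threshold for any of the 7 genes.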

How the results depend on the processing

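The number of the 7 genes called stayed at 0 in all 6 comparisons of PFOS with control, both trends and all 3 interactions under every alternative run, except that limma on log2(TPM + 0.1) called 1 gene at 0.1 µM after 6 weeks, HSD17B1, at -0.35 with an adjusted p of 0.0447. Between 12 and 6 weeks 5 genes were called at each concentration and in the average. With 10 counts required in every library 3 were called at 0.1 µM, since CYP11A1 left the test and FDXR had an adjusted p of 0.0536. Leaving out each replicate in turn gave 4 to 5 called genes in the control and at each PFOS concentration, and 5 to 6 in the average, where FDX1 passed without replicate 1 (adjusted p = 0.0474) or 3 (0.0490). The calls lost were FDX1 in the control and FDXR under PFOS: at 0.01 µM without replicate 1 (0.0787) or 3 (0.163), at 0.1 µM without replicate 1 (0.136), 2 (0.157) or 4 (0.120), without replicate 3 of the 12-week control (0.0562), with DESeq2's size factors (0.0516) or with no filter on low counts (0.0738), and at 1 µM without replicate 2 (0.0648). No direction of a called gene reversed. With the replicate block, which pairs libraries of one vial, 0 genes were called in each PFOS comparison and 5 in each time comparison, and it changed no other call. Over the alternatives the averaged log2 fold change ranged from -2.25 to -2.13 for CYP11A1, -1.33 to -1.28 for HSD3B1, -0.88 to -0.77 for STAR, -0.30 to -0.28 for POR and 0.33 to 0.37 for FDXR. The other genes named for the averaged comparison kept their calls under every alternative that tested them. The count over all genes was less stable under PFOS: at 0.1 µM it was 544 at 6 weeks, 22 to 570 with 1 replicate left out and 49 with all 32 libraries in one fit, and 136 at 12 weeks, with 4 to 315 and 540. At 1 µM it was 36 (12 to 178, and 5) and 28 (8 to 61, and 136). DESeq2 called 128 and 88 genes at 1 µM, and 282 at 0.1 µM after 12 weeks. Depth limits CYP11A1 at 12 weeks, with 2 to 14 counts in a library, and leaves HSD3B2, CYP17A1 and CYP19A1 untestable. Exposure time cannot be told apart from culture age, passage or collection date.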
